A study of Mus musculus with 30 samples.

Results

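Cyp4a10, Cyp4a14, Vnn1 and Pxmp2 are 4 of the 6136 genes that the array annotation names, all tied to the nuclear receptor PPAR alpha, and their RNA was measured in the kidneys of restricted old, control old and control young mice. All probe sets named for these genes were taken, which gave 6 of the 13041 probe sets with values on all arrays that are not controls, 5 on the B arrays and 1 on the A arrays. Of these 6, 4 passed the filter on low values, 1 for each gene. The genes were picked with their diet response and their place against the young level already known. Their differences between groups are therefore given as a description, and no test is read for them.

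The groups were calorie-restricted C57BL/6 mice of 30 months, which were given less food energy than controls, control-fed C57BL/6 mice of 30 months, and control-fed C57BL/6 mice of 5 months, each with 5 animals numbered 1 to 5. No transgene, mutation or drug is given for any group, and neither the sex of the mice nor the degree of restriction is stated in the labels. Kidney total RNA of each animal was put on 2 types of short-oligonucleotide array, marked A and B in the titles. Whether each number stands for its own mouse is not stated, so p-values measure the spread between these samples, which may be technical. They are called animals below.

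PPAR alpha is a receptor that fatty acids activate, as in fasting, and that binds DNA together with a retinoid X receptor. It switches on genes for the uptake, binding and oxidation of fatty acids in mitochondria and peroxisomes, and the tubule cells of the kidney, which live largely on fatty acids, hold it. Cyp4a10 and Cyp4a14 are P450 enzymes that hydroxylate fatty acids at the far end of the chain (omega oxidation), and in rodents PPAR alpha agonists raise both strongly. Vnn1 is a pantetheinase, an enzyme on the cell surface that splits pantetheine, a breakdown product of coenzyme A, into pantothenate and cysteamine, and it is a known PPAR alpha target in mouse liver. Pxmp2 is a channel protein of the peroxisome membrane.

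The values are array intensities, some of them below 0. Log2 differences were taken after each array had been scaled and values under a background floor, an intensity of 1103 on the A arrays and 1815 on the B arrays, had been set to that floor. All 8 measured proximal tubule markers passed the filter, among them Slc34a1, the phosphate transporter of that segment. A set of 85 tested probe sets on the B arrays had young values that did not follow the order of the old ones, with r = -0.20 between young and old control means across probe sets, which are not independent. These were targets with several probe sets marked i, f, s or r, and no probe set of the 4 genes was among them. The 957 other tested B probe sets marked s, which include that of Pxmp2, had r = 0.957, against 0.957 for the 1537 of that kind on the A arrays. Titles numbered 1 to 3 and titles numbered 4 and 5 separated in every group along a first principal component with 37.3% of the variance inside groups. The labels do not say what these number sets are, so values are also given by set.

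Cyp4a10 was highest in restricted old kidneys, lower in old controls and lowest in young controls. Its probe set marked g (B arrays) read 32251, 28267, 34263, 42912 and 52551 in calorie-restricted mice 1 to 5. Old controls read 20605, 27354, 17358, 21540 and 13950. Young controls read 12863, 10768, 6627, 15197 and 17565. Every restricted animal lay above every old control and every young control, while the old and young controls overlapped, with 3 of 5 old controls above all young ones. The means were 38049 ± 9716 in restricted mice, 20161 ± 5007 in old controls and 12604 ± 4198 in young controls (SD, n = 5 each). On the log2 scale restricted minus old control was 0.92 ± 0.25 (SE, n = 5 per group), old minus young control 0.72 ± 0.25, and restricted minus young control 1.63 ± 0.25, a 3.10-fold difference.

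The order was the same for Cyp4a14, with a wider gap between the diets. Its probe set marked g (Y11638_g_at, B arrays) read 15565, 14095, 21865, 26252 and 29878 in calorie-restricted mice 1 to 5. In old controls the values were 5172, 10878, 5871, 8183 and 4670. In young controls they were 1991, 2153, 1421, 6948 and 8504, the third of these under the floor. The restricted group overlapped with neither control group. Young controls fell apart into 3 animals near the floor, numbers 1 to 3, and 2 at the level of old controls, numbers 4 and 5. The means were 21531 ± 6763 in restricted mice, 6955 ± 2573 in old controls and 4203 ± 3274 in young controls (SD, n = 5 each). Restricted minus old control was 1.64 ± 0.41 (log2, SE), old minus young control 0.96 ± 0.41, and restricted minus young control 2.60 ± 0.41. The last 2 are understated by the young value at the floor.

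Both Cyp4a genes have another probe set on the B arrays without the letter g. These read between -195 and 136 for Cyp4a10 and between -41 and 351 for Cyp4a14, and were above the floor on 0 of 15 arrays each, so no difference can be read from them. Cyp4a10, Cyp4a14 and Cyp4a31 stand side by side on chromosome 4 in the order Cyp4a14, Cyp4a10, Cyp4a31, in a run of Cyp4a genes between Cyp4a12b and Cyp4b1 (neighbours from RefSeq, assembly GRCm38.p6). Their transcripts are closely alike, above all those of Cyp4a10 and Cyp4a31, and how far a probe set named for one of them also reads another was not tested.

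Vnn1 followed the same order of group means, and here the age groups were the ones set apart. Its single probe set (aa212803_at, A arrays) read 5202, 4377, 5909, 9886 and 10488 in calorie-restricted mice 1 to 5. Old controls read 4442, 6270, 3081, 4920 and 3376. Young controls read 2592, 2248, 1950, 1476 and 2524. Every old animal, restricted or not, lay above every young one, while restricted mice and old controls overlapped, with only restricted mice 4 and 5 above all old controls. The means were 7172 ± 2813 in restricted mice, 4418 ± 1280 in old controls and 2158 ± 458 in young controls (SD, n = 5 each). Restricted minus old control was 0.65 ± 0.26 (log2, SE), old minus young control 1.02 ± 0.26, a 2.03-fold difference, and restricted minus young control 1.67 ± 0.26.

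Pxmp2 had another order, with old controls lowest. Its probe set (suffix s, B arrays) read 5146, 4040, 7607, 6579 and 7158 in calorie-restricted mice 1 to 5. Old controls read -212, 1855, 2253, 5133 and 1186. Young controls read 1130, 2732, 5434, 2934 and 4235. The 5 restricted mice were all above the floor, as were 3 of 5 old controls and 4 of 5 young controls. Old control 4 read above 1 of the restricted mice, and 4 of 5 restricted mice lay above all old controls. The means were 6106 ± 1481 in restricted mice, 2043 ± 1965 in old controls and 3293 ± 1627 in young controls (SD, n = 5 each). Restricted minus old control was 1.34 ± 0.32 (log2, SE), old minus young control -0.45 ± 0.32 and restricted minus young control 0.90 ± 0.32, each understated where animals lay at the floor.

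**Figure D1:**
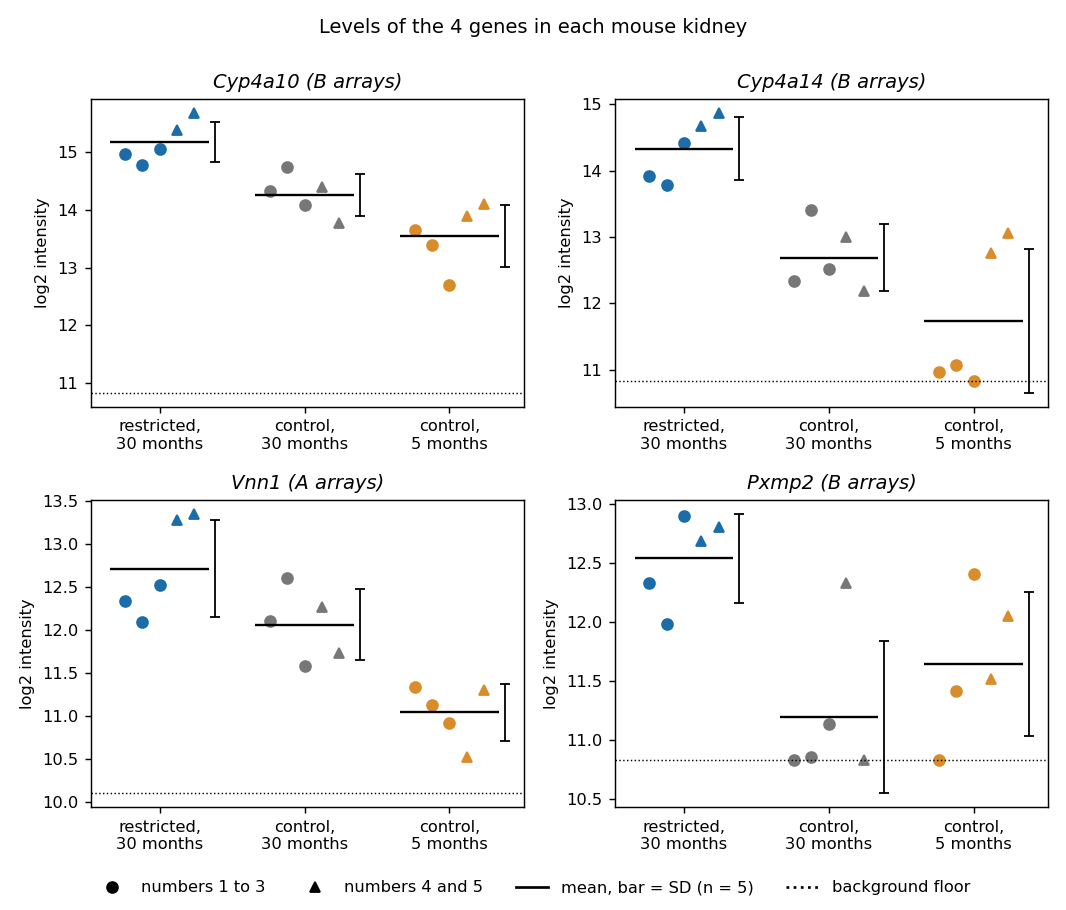
Log2 intensity of the tested probe set of each gene (vertical axis) in each animal of the 3 groups (horizontal axis). Circles are animals numbered 1 to 3 and triangles those numbered 4 and 5, the horizontal line is the group mean, the bar beside it 1 SD (n = 5) and the dotted line the background floor. Restricted animals sit above all old controls for Cyp4a10 and Cyp4a14, old animals sit above all young ones for Vnn1, and 2 old controls of Pxmp2 sit on the floor.

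Set against the young level, the diet values of 3 genes lay further from it and those of 1 lay past it. Cyp4a10, Cyp4a14 and Vnn1 had old controls above young controls (0.72, 0.96 and 1.02) and restricted mice above old controls (0.92, 1.64 and 0.65), so the restricted kidneys were the farthest from the young ones. For Pxmp2 old controls lay below young controls (-0.45), and restricted mice lay above old controls (1.34) and above young controls (0.90). The comparisons share animals, old controls in the first 2, and are not independent. In the fit with limma and Benjamini-Hochberg adjustment over all 4518 tested probe sets, 2 of the 4 genes were called higher in restricted mice than in old controls (Cyp4a14 and Pxmp2), where 0.907% of all tested probe sets were higher and 1.7% lower. In old against young controls 1 of 4 was called higher (Vnn1), where 2.99% of all were (5.16% in either direction), and 3 of 4 in restricted mice against young controls (all but Pxmp2), where 2.94% of all were (5.71% in either direction). The shares against young controls include the 85 B probe sets with young values out of order, of which 58 were called with age. Without them 96 of 4433 were called higher with age and 88 in restricted mice against young controls. The diet calls of Cyp4a14 and Pxmp2 held in 5 and 7 of the 15 fits that left out 1 animal and in 7 and 5 of 12 other settings, and both were lost with quantile normalization, with the floor halved and with the filter at 1 array. The age call of Vnn1 held in 9 of 15 and 9 of 12, and was lost with the filter at 1 array and in each number set alone. With the number set as a term Cyp4a10 was also called with the diet. The genes were chosen on these comparisons, so nothing is read from these counts. Groups that did not overlap, with every animal of the first above every animal of the second, were found for 2, 1 and 3 of the 4 genes in these comparisons, against 1.79%, 3.43% and 3.72% of all tested probe sets.

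In young controls the number sets stood apart for Cyp4a14 and Cyp4a10. Cyp4a14 averaged 1855 in young controls 1 to 3 and 7726 in young controls 4 and 5, and Cyp4a10 averaged 10086 and 16381. Old minus young control was thus 1.80 for animals 1 to 3 and -0.31 for animals 4 and 5 (log2), and for Cyp4a10 it was 1.14 and 0.09. The higher level in old than in young controls was therefore not seen for Cyp4a14 in numbers 4 and 5. For Cyp4a10 the difference there was small, with means of 17745 in old controls and 16381 in young controls. Vnn1 was even across the sets in this comparison, with 0.97 and 1.09, and Pxmp2 read -0.61 and -0.21.

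With the diet the sets differed too, and here all 8 values were positive. Animals 1 to 3 and animals 4 and 5 gave restricted minus old control values of 0.56 and 1.45 for Cyp4a10, 1.29 and 2.18 for Cyp4a14, 0.22 and 1.31 for Vnn1, and 1.46 and 1.17 for Pxmp2. Vnn1 averaged 5163 and 10187 in restricted mice of the 2 sets, with 4598 and 4148 in old controls. A test of the difference between the sets, as an interaction in limma adjusted over all tested probe sets and added after the data were seen, gave the lowest adjusted p for Cyp4a14 with age (-2.12 ± 0.44 on the log2 scale for numbers 4 and 5 minus numbers 1 to 3, adjusted p = 0.102). The count passing was 0 of 4 for age and 0 of 4 for the diet, with 2 of 4 each at an unadjusted p under 0.05. Over all probe sets 0.133% passed for age and 0.708% for the diet at the adjusted threshold. The share of all probe sets at the unadjusted threshold was not counted, so nothing is read from the 2 of 4.

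**Figure D2:**
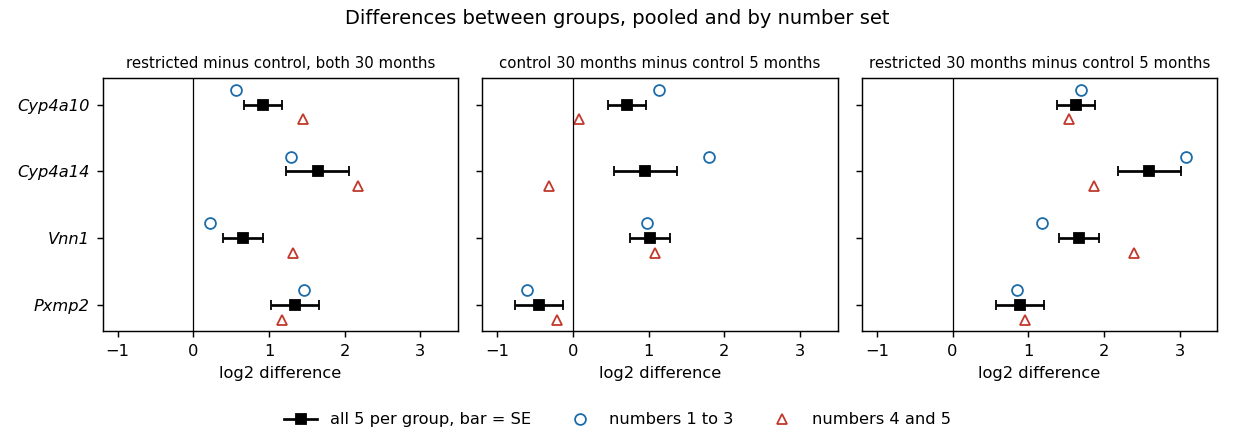
Log2 differences (horizontal axis) of the 4 genes (rows) in the 3 comparisons (panels). Squares are the values over all 5 animals per group with SE bars, open circles those of animals 1 to 3 and open triangles those of animals 4 and 5. All restricted minus old control values lie above 0, and the Cyp4a14 triangle in old minus young controls lies at -0.31.

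Deviations of animals from their group mean hold none of the group differences that chose the genes, and in them the Cyp4a pair varied together. Over the 15 animals Cyp4a10 and Cyp4a14 had Pearson r = 0.825 and Spearman rho = 0.832, with permutation p = 0.0007 and p = 0.00038 and adjusted p = 0.0042 and 0.00228 over the 6 pairs of genes (two-sided, 100000 resamples within groups). The r was 0.815 without the 2 animals farthest from the median of Cyp4a10. Within the number sets it was 0.697 in the 9 animals numbered 1 to 3 and 0.897 in the 6 animals numbered 4 and 5. These p-values and within-set values still hold the shift between number sets, which differs by group. In deviations from the mean of group and number set r was 0.707 and rho 0.764 (adjusted p = 0.0243 and 0.0174 over the 6 pairs, exact two-sided permutation test over all 1728 reorderings within group and set, added after the data were seen), and r was 0.884 without the 2 farthest animals. Both probe sets sit on the same array.

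Vnn1, which was measured on the other array type, had r = 0.607 and rho = 0.646 with Cyp4a10, and these did not pass over the 6 pairs (adjusted permutation p = 0.0524 and 0.0542). Without the 2 animals farthest from the median of Cyp4a10 r was 0.691, and within the number sets it was 0.638 and 0.474. In deviations from group and number set r was 0.791 and rho 0.800 (adjusted exact permutation p = 0.00347 and 0.0104), and r was 0.866 without the 2 farthest animals. The unadjusted p of that r, 0.000579, is the smallest this test can give. Over the 10 old animals alone r was 0.927 between Vnn1 and Cyp4a10 and 0.880 between Vnn1 and Cyp4a14, which is a description of a subset chosen after the data were seen. Over all 15 animals Vnn1 and Cyp4a14 had r = 0.337 (rho = 0.289, adjusted permutation p = 0.366 and 0.435), r = 0.599 without the 2 farthest animals, and 0.328 and 0.106 within the sets. In deviations from group and number set this pair had r = 0.777 and rho = 0.814, which did not pass over the 6 pairs (adjusted exact permutation p = 0.066 and 0.0521), and r was 0.643 without the 2 farthest animals.

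Pxmp2 had r between 0.006 and 0.312 with the other genes over the 15 animals (adjusted permutation p between 0.508 and 0.984, and between 0.410 and 0.471 for rho), and none of the 3 pairs passed. In deviations from group and number set these r lay between -0.116 and 0.41, and none passed either (adjusted exact permutation p between 0.399 and 0.768). Its r with Cyp4a10 was -0.621 among animals 1 to 3 and 0.381 among animals 4 and 5. The pooled within-group SD on the log2 scale was 0.74 for Cyp4a14, 0.56 for Pxmp2, 0.45 for Vnn1 and 0.43 for Cyp4a10, against a median of 0.31 over all tested probe sets.

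**Figure D3:**
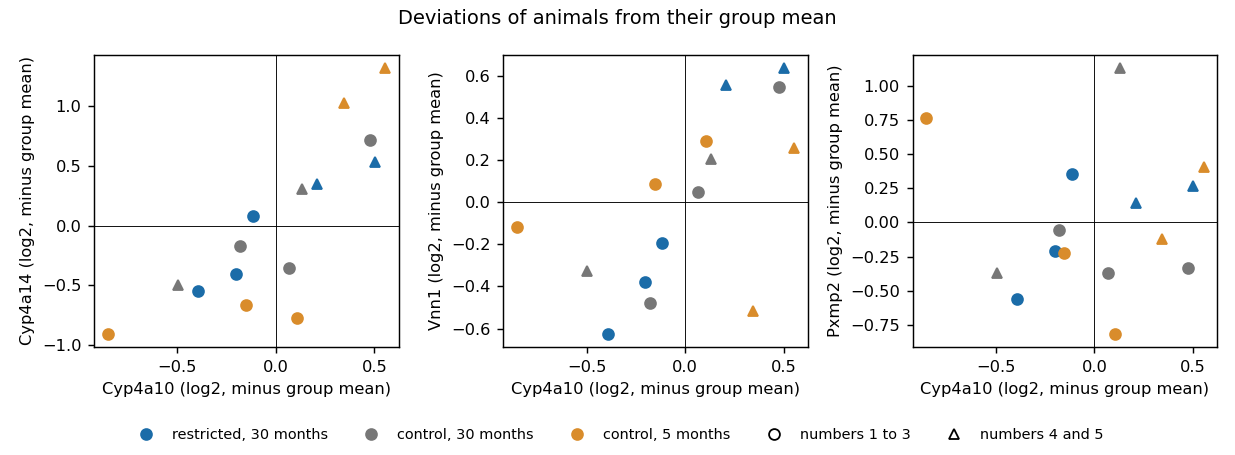
Log2 deviations of the 15 animals from their own group mean, for Cyp4a10 (horizontal axes) against Cyp4a14, Vnn1 and Pxmp2 (vertical axes). Colours give the group, circles animals numbered 1 to 3 and triangles those numbered 4 and 5, and the points rise together for Cyp4a14 (r = 0.825) and not for Pxmp2 (r = 0.006).

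Among 2583 other named genes outside the lists, the within-group deviations most like those of Cyp4a10 over the 15 animals were those of Krtcap2 (r = 0.860), Zdhhc9 (0.713), Pip4k2c (0.703), Pam16 (0.678) and Sub1 (0.674). For Cyp4a14 they were Psmb2 (r = 0.828), Ttc7b (0.806), Pam16 (0.793), Tmem38b (0.793) and Cct7 (0.788). For Vnn1 they were Srxn1 (r = 0.822), Bpnt2 (0.806), Cct4 (0.799), Aldh1a7 (0.786) and Gramd3 (0.780), and for Pxmp2 Glrx (r = 0.848), Fzd9 (0.841), Bak1 (0.836), Hoxa11 (0.729) and Spr (0.722). These are the highest of many values and are given as a description. In deviations from the mean of group and number set, Krtcap2 still had r = 0.819 with Cyp4a10 and Srxn1 0.744 with Vnn1, while Pam16 had -0.06 and Tmem38b 0.05 with Cyp4a14.

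The nearest relative, Cyp4a31, another omega hydroxylase of the same gene run, was read by a pair of probe sets on the A arrays. The i probe set (AA244719_i_at) read 10938, 7232, 13629, 12413 and 11353 in calorie-restricted mice, against 6945, 9488, 7459, 7424 and 5864 in old controls and 4318, 3593, 4531, 4326 and 4921 in young controls. All 10 old animals lay above all young ones, and 4 of 5 restricted mice above all old controls. The means were 11113 ± 2407 in restricted mice, 7436 ± 1316 in old controls and 4338 ± 483 in young controls (SD, n = 5 each). By limma this probe set rose with age by 0.77 ± 0.17 (log2, SE, adjusted p = 0.0111) and read 0.56 ± 0.17 with the diet (adjusted p = 0.110). The brighter f probe set (AA244719_f_at) read 0.68 ± 0.28 (adjusted p = 0.231) and 0.33 ± 0.28 (adjusted p = 0.630), and rose in restricted mice against young controls by 1.01 ± 0.28 (adjusted p = 0.0477). Young control 1 read 12920 on this probe set, the level of restricted mice, which averaged 13605 ± 3007.

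Of 86 other PPAR alpha targets listed from general knowledge, 45 were on the arrays and 37 had a tested probe set. With the diet 0 of the 37 passed in either direction by limma, where 2.61% of all tested probe sets did, and 7 were higher and 1 lower at an unadjusted p under 0.05. Their median log2 difference was 0.21 and that of all tested probe sets 0.03, with 27 above 0 and 10 below. Shares of all tested probe sets at that unadjusted threshold, or above 0, were not counted. Counts of that kind, here and in the lists below, are therefore only a description. With age 3 of 37 fell and 0 rose, where 2.17% of all fell and 2.99% rose, and their median was -0.01 against -0.04 for all. Between restricted mice and young controls 4 rose and 3 fell, where 2.94% and 2.77% of all did, with a median of 0.06 against -0.01 for all. The count that fell with age was 1 without old control 4, without old control 5 or without young control 2, 3 or 5. With the number set as a term 4 of the 37 rose with the diet, where 224 of all 4518 tested probe sets were called, 95 of them higher. In restricted mice against young controls 7 rose and 4 fell under that term, where 219 of all 4518 were called higher and 220 lower. The 4 that rose with the diet were Plin2 (0.61, limma adjusted p = 0.025), Retsat (0.58, adjusted p = 0.0268) and Hsd17b4 (0.51, adjusted p = 0.0483), with Acot1, which could pass the filter only through restricted arrays. Acot1 is also among the 7 and among the targets above 0 with the diet, so its part in these counts is not read. Cyp4a31 is among the targets that rose in restricted mice against young controls with and without that term. How far its probe set also reads Cyp4a10 was not tested. Retsat and Hsd17b4 were named after their values were seen. A single gene rose with the diet without restricted animal 2 or without young control 4, and a single gene rose with age without young control 1. These single genes are not named here, and nothing is read from them.

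In the lipid uptake, binding and storage list (15 tested of 33), Angptl4, a secreted inhibitor of lipoprotein lipase, showed an order of groups like that of the Cyp4a genes. It read 7143, 4669, 6634, 7738 and 5859 in restricted mice, against 2734, 4584, 2208, 3924 and 4474 in old controls and 2625, 3539, 1961, 1366 and 1869 in young controls. Every restricted animal lay above every old control, and the controls overlapped. Restricted minus young control was 1.55 ± 0.26 (log2, SE, limma adjusted p = 0.000967), restricted minus old control 0.87 ± 0.26 (adjusted p = 0.0948) and old minus young control 0.68 ± 0.26 (adjusted p = 0.176). Plin2, which coats lipid droplets, rose by 0.90 ± 0.19 in restricted mice against young controls (adjusted p = 0.00799) and read 0.61 ± 0.19 with the diet (adjusted p = 0.117). Acot1, a thioesterase that splits fatty acyl coenzyme A, was named after its values were seen. It read 1619, 1177, 1498, 4244 and 3927 in restricted mice, all above the floor, while all 10 control animals read between -332 and 981, at the floor. It passed the filter only through the restricted arrays, so its difference is given without a test. Restricted mice were at least 1.96-fold higher than old controls, as a ratio of the restricted mean to the floor, at least 1.28-fold in animals 1 to 3 and at least 3.71-fold in animals 4 and 5.

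Some members of this list were lower. Lpl, lipoprotein lipase, fell with age by 0.92 ± 0.17 (limma adjusted p = 0.00234) and G0s2, an inhibitor of triglyceride lipase, by 0.61 ± 0.15 (adjusted p = 0.0276). In restricted mice against young controls Lpl fell by 1.21 ± 0.17, Fabp3, a fatty acid carrier, by 1.03 ± 0.28 and Me1, malic enzyme, by 0.70 ± 0.18. G0s2 read 0.54 ± 0.15 with the diet (adjusted p = 0.0856). The brightest others read 0.67 ± 0.51 for Scd1, -0.06 ± 0.22 for Gpd1 and -0.27 ± 0.28 for Cd36, the fatty acid receptor, with the diet.

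In the mitochondrial oxidation and ketone synthesis list (14 tested of 25), 12 read above 0 with the diet and 0 passed by limma, with 1 higher and 1 lower at an unadjusted p under 0.05. Acaa2, the thiolase of the last step of beta oxidation, rose by 0.80 ± 0.18 in restricted mice against young controls (limma adjusted p = 0.0102), and with the diet it read 0.54 ± 0.18 (adjusted p = 0.141). Its values were 15190, 14879, 17585, 23214 and 26353 in restricted mice, all above the 12765 to 13469 of old controls, and young controls read 8552 to 14488. Acadm, a dehydrogenase of medium-chain fatty acids, fell with age by 0.67 ± 0.18 (adjusted p = 0.0355) and read 0.28 ± 0.18 with the diet. Cpt1a, which brings fatty acids into mitochondria, read 0.30 ± 0.20, Hadh 0.18 ± 0.33 and Acads -0.43 ± 0.18 with the diet.

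In the peroxisomal and omega oxidation list (8 tested of 28), 7 read above 0 with the diet, the median was 0.15, and the 1 that passed in any comparison was Cyp4a31. How far the probe set of Cyp4a31 also reads Cyp4a10, which was picked on these comparisons, was not tested. Slc27a2, a fatty acid transporter, read 0.04 ± 0.19, Abcd3, a transporter of the peroxisome membrane, 0.23 ± 0.16 and Ech1 0.01 ± 0.21. Peroxisome membrane, biogenesis and other peroxisomal enzymes outside the target lists, the neighbours of Pxmp2 by place in the cell, had a median of 0.03 with the diet over 11 tested genes and 0 passed by limma, with 2 higher and 0 lower at an unadjusted p under 0.05. With age 1 of these fell, Amacr (-1.06 ± 0.17, limma adjusted p = 0.000618), a racemase of branched fatty acids. Scp2 read 0.22 ± 0.16, Idh1 0.03 ± 0.14 and Slc25a17 0.32 ± 0.15 with the diet. Of the coenzyme A genes, beside which Vnn1 acts, 2 were tested. Coasy, the last enzyme of coenzyme A synthesis, fell with age by 1.09 ± 0.23 and read -0.20 ± 0.23 with the diet, and Slc5a6, a vitamin transporter, read -0.29 ± 0.15 and -0.02 ± 0.15.

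**Figure D4:**
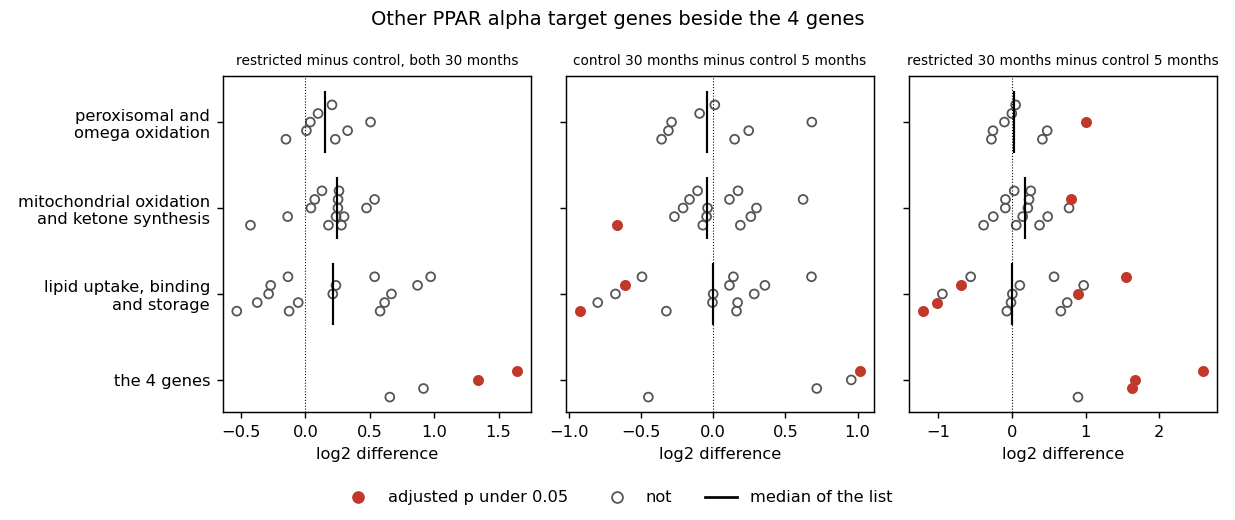
Log2 differences (horizontal axis) of the tested genes of the 3 PPAR alpha target lists and of the 4 genes (rows) in the 3 comparisons (panels). Filled points passed at an adjusted p under 0.05, open points did not, the vertical line is the median of each list, and the row of the 4 genes is a description, since they were chosen on these values. With the diet 0 listed targets passed in this fit and 4 rose when the fit had a term for the number set. In restricted mice against young controls 4 rose and 3 fell in this fit, with 7 higher and 4 lower under that term. Acot1, which passed the filter only through restricted arrays, is among the 4 that rose with the diet and the 7 under that term.

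The receptor itself showed no difference past the test. Ppara read 4858, 5505, 6545, 3022 and 3183 in restricted mice, 4723, 6106, 4657, 2613 and 2847 in old controls, and 4734, 3722, 5152, 2146 and 2435 in young controls. Numbers 4 and 5 were the lowest in each group, and the groups overlapped. Restricted minus old control was 0.15 ± 0.30 (log2, SE, limma adjusted p = 0.861) and old minus young control 0.21 ± 0.30 (adjusted p = 0.790). Ppard, a related receptor, read -0.09 ± 0.14 and 0.12 ± 0.14. Pparg, Rxra, Rxrb and Rxrg were on the arrays and did not pass the filter on low values. Other P450 enzymes of arachidonate and fatty acids were not called in any comparison by limma (0 of 3, and 0 of 3 at an unadjusted p under 0.05), with Cyp4b1 at -0.37 ± 0.19, Cyp2j5 at -0.29 ± 0.14 and Cyp2e1 at 0.25 ± 0.31 for the diet.

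In whole kidney, fewer cells of a type and less RNA per cell cannot be told apart. Of the proximal tubule markers, the segment where Cyp4a genes are chiefly made, 0 of 8 passed with the diet by limma (1 higher and 0 lower at an unadjusted p under 0.05). With age 1 of 8 fell, Gatm (-0.87 ± 0.16), and 0 were higher and 3 lower by limma at an unadjusted p under 0.05. The median of these markers with age was -0.25, against -0.04 for all tested probe sets. Their summed intensity on the A arrays ran from 136824 to 158006 in restricted mice, 117686 to 156422 in old controls and 146295 to 166048 in young controls, so the groups overlapped. Slc34a1 read -0.02 ± 0.12, Kap 0.10 ± 0.35 and G6pc 0.63 ± 0.20 with the diet. In restricted mice against young controls Fbp1 fell by 0.64 ± 0.14, and Gatm also fell (-1.01 ± 0.16).

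Leukocyte markers moved with age and with the diet. By limma 8 of 9 were higher with age (all but Ptprc), where 2.99% of all tested probe sets were. In restricted mice against young controls 3 of 9 were higher, where 2.94% of all were. With the diet 6 of 9 were lower, where 1.7% of all were. Those that fell were the B-cell genes Ighm (-2.57 ± 0.36), Igha (-2.40 ± 0.48) and Jchain (-2.07 ± 0.18) and also Cd74 (-1.15 ± 0.16), Ctss (-1.26 ± 0.17) and C1qb (-1.15 ± 0.17), while Lyz2 read -0.92 ± 0.30 and Laptm5 -0.70 ± 0.20. Their sum on the A arrays was 22207 to 43630 in restricted mice, 68253 to 91991 in old controls and 16134 to 21934 in young controls. Fat markers, Adipoq, Fabp4 and Lipe among them, passed in 0 of 5 cases in each comparison by limma (0 with age or the diet at an unadjusted p under 0.05), and Lep and Slc2a4 were never above the floor. Adrenal markers (Hsd3b1 and Nr5a1) passed in 0 of 2 cases by limma, also at an unadjusted p under 0.05, and Star was never above the floor. Red blood cell markers (Hba-a1 and Hbb-b2) passed in 0 of 2 by limma, where 1 was higher with age unadjusted, and their sum was 30729 to 86805 in restricted mice, 59552 to 95304 in old controls and 36249 to 79953 in young controls. The part of these cells in the differences of the 4 genes was not tested.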

How the data were processed

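Kidney total RNA of 15 numbered animals in 3 groups was measured on 2 array types. Sample titles gave the group and the number. The deposited intensity of a probe set is a whole number, and 20.6% to 35.9% of those on an array are below 0. The software that made them is not named in the labels. Trimmed means of 1463 to 1504 differed little between arrays. Arrays of a table were brought to 1 trimmed mean (2% off either end, factors 0.997 to 1.01). Lower values were raised to a floor, the root mean square of all negative intensities in that table, before log2. A probe set needed 5 of 15 arrays above the floor to be tested (2609 on A, 1909 on B). The 122 controls were not tested, but those with values on all arrays entered the scaling and the floor. Left out entirely were 77 probe sets (16 of them not controls) without a value in young control 4 or 5 on A. Gene symbols came from the array annotation, and 7513 of 7530 probe sets with a single symbol were updated by gene number. The tables were normalized separately. All 3 groups were fitted with limma 3.58.1 in R 4.3.3 (lmFit, eBayes), and p-values of both tables were adjusted together (Benjamini-Hochberg, threshold 0.05). The steps were tested on simulated data. The 4 genes and all lists were chosen with earlier results of these data known. The brightest probe set stood for a gene. From each of 12 lists the genes passing in any comparison were named (at most 8) with up to 3 of the highest level, and outside the lists the 5 genes most like each of the 4. Correlations used numpy 2.4.6. Alternatives were quantile normalization, no scaling, the floor doubled or halved, filters at 1 and 10 arrays, a replicate block, number sets as a term or alone, leaving out the 85 exchanged probe sets or each animal, fits of only the groups compared, and trend and robust moderation.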

Additional observations from a re-analysis of the deposited data

Results flagged for a closer look

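Over the 12 groups of 5 animals of the 4 genes' tested probe sets, 1 held an animal far from the others, and chance gives about 1 in 20. Old control 4 read 5133 for Pxmp2 while the other old controls read -212, 1855, 2253 and 1186. The gap to the next animal was 0.792 of the group's range on the log2 scale, above the critical value of 0.71, and 2 of the others lay at the floor. On the deposited intensities the gap was 0.539 of the range, under the critical value, so the distance depends on the floor. Without this animal restricted minus old control for Pxmp2 was 1.63 on the log2 scale, against 1.34 with it.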

How the results depend on the processing

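Over 28 other settings, 15 of which leave out 1 animal, 323 of 324 differences of the 4 genes kept their sign and 8 moved by more than the spread between animals. Many of the 324 could not move. The filters, the replicate block, the number set term, fits of only the groups compared and the moderation cannot change a log2 difference. Nor can leaving out an animal outside the groups compared. The difference that changed sign was Cyp4a14 in old minus young controls, which read 1.80 (log2) for animals 1 to 3 and -0.31 for animals 4 and 5. The other values that moved were Vnn1 in restricted minus young controls, which read 1.19 for animals 1 to 3 and 2.40 for animals 4 and 5, and, within the last set, restricted minus old control for Cyp4a10 (1.45) and Vnn1 (1.31) and old minus young control for Cyp4a10 (0.085). With the floor doubled Pxmp2 had 0.61 in restricted minus old control. Leaving out 1 animal gave 1.51 to 1.82 for Cyp4a14 and 1.25 to 1.63 for Pxmp2 with the diet, and these were called in 5 and 7 of 15 such fits. Nothing is read from those calls, since the genes were chosen on these comparisons. Probe sets called with the diet, 118 in all, numbered 50 with a filter at 10 arrays, 224 with the number set as a term, 253 in numbers 1 to 3, 5 in numbers 4 and 5, 70 in a fit of those groups alone, and 73 to 133 without 1 animal (73 without restricted animal 1, 78 without restricted animal 5). With age the count of 233 became 151 in numbers 1 to 3, 119 in numbers 4 and 5 and 150 without the 85 exchanged probe sets. For restricted against young controls the count of 258 became 439 with the number set as a term, 97 in numbers 4 and 5 and 169 without the exchanged probe sets. Listed PPAR alpha targets called higher with the diet, 0 in all, were 1 with the floor doubled or halved or in either number set, 4 in the fit with a term for the number set, and 0 to 1 without 1 animal. Those higher with age were 0 to 1 without 1 animal. Those lower with age, 3 in all, were 1 in numbers 1 to 3, 0 in numbers 4 and 5, 1 in a fit of those groups alone and 1 to 3 without 1 animal. In restricted against young controls 7 were higher with the number set as a term, against 4, and 4 were lower, against 3. In that comparison 0 were lower in numbers 4 and 5, and 1 to 4 were lower without 1 animal (1 without young control 2). Acot1, which passed the filter only through restricted arrays, is among those 7 and among the 4 with the diet under that term. The gene behind each count of 1 that was higher with the diet is not named here, and nothing is read from those counts. The cause of these changes was not tested, beside fewer animals or probe sets where the setting has them. Values near the floor limit Pxmp2 and the young Cyp4a14 values.

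Same-numbered animals of different groups had deviations correlated between -0.0122 and 0.496, with 14 of 15 correlations above 0 and 12 above 0.1. The number sets, which separated in every group, are part of this. Since not every pair was above 0.1, and 2 of 15 animals matched their own number best, the numbers were not taken to pair the animals. With the number as a replicate block the differences (1.64 for Cyp4a14 and 1.34 for Pxmp2 with the diet) could not change, since every group holds each number. In that fit 170 probe sets were called with the diet, 277 with age and 325 in restricted against young controls.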
